A study of Mus musculus with 13 samples.

Results

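The Wnt receptor genes of the Frizzled family and the co-receptor gene Lrp6 were examined in mammary tumors that arose in MMTV-tTA TetO-Tsg101 mice (genotype label MtTA Teto-TSG101wt) and in normal mammary glands. Members were taken by gene symbol, namely Fzd1, Fzd2, Fzd3, Fzd4, Fzd5, Fzd6, Fzd7, Fzd8, Fzd10 and Lrp6, and all 10 were listed among the 15213 genes of the deposited table. RNA sequencing covered 10 tumors of 6 double transgenic females and the glands of 3 wild-type FVB females. In the double transgenic mice, the tetracycline-controlled transactivator tTA is driven by the mouse mammary tumor virus promoter, which is active mainly in luminal epithelium, and switches on a TetO transgene that carries Tsg101, an ESCRT component of endosomal sorting, together with luciferase. The tumors came from a single founder line on the FVB background, and the wild-type glands carry neither transgene, so that the transgenes and the tumor state cannot be told apart. Of the tumor-bearing mice, 3 gave 1 tumor, 2 gave 2 tumors (tumors 2 and 3, and tumors 5 and 6) and 1 gave 3 tumors (tumors 8, 9 and 10). P-values that take the 10 tumors as separate samples therefore measure in part the spread within a mouse. The age of the animals and the reproductive stage of the glands are not given in the labels.

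Values are normalized cpm, that is, reads scaled to the size of the library and by a further factor of the authors. The tumor libraries held between 6176269 and 16835397 reads and the gland libraries between 11672487 and 23889042 reads, and 3 reads, the limit that a count of 0 allows (counting error only), equal 0.141 to 0.683 normalized cpm in the tumors and 0.128 to 0.366 in the glands. The ribosomal RNA gene Rn45s took 0.456% to 27.4% of the reads in the tumors, highest in tumor 9, and 0.296% to 4.35% in the glands, highest in gland 3. Gland 3 was also the shallowest gland and held more adipocyte marker signal than the other glands, with a summed level of 11791 against 4462 and 4857 normalized cpm, and it had the lowest level of every one of the 10 receptor genes among the glands. Calls of the receptors and counts of the other pathway genes that change without this library are given both ways. Luminal keratin and junction markers, 12 of 12 of them listed, were present in both tissues, with sums from 2156 to 3733 for tumors and from 2000 to 4250 for glands and 1 marker called in each direction. The milk protein gene Csn2 stood between 56894 and 63624 in the glands and between 85.1 and 21978 in the tumors. Tsg101 itself differed by a log2 fold change of 0.30 with an FDR of 0.296, which became 0.62 (FDR 0.0165) with library size alone and -0.73 (FDR 0.0639) under scaling to 20 epithelial genes, and reads of the endogenous gene and of the transgene are not separated here.

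Frizzled proteins are membrane receptors that bind Wnt ligands through a cysteine-rich domain outside the cell. Together with the single-pass co-receptors Lrp5 and Lrp6 they form the receptor that, once occupied, holds Axin at the membrane and spares β-catenin from degradation. Without these co-receptors some Frizzleds signal through the planar cell polarity branch. In the mammary gland, Wnt signaling is known for the upkeep of basal stem cells and for side branching, and its activation by proviral insertion was among the first causes of mouse mammary cancer to be described. The longest open reading frames of the GENCODE transcripts give the groups within the family. Fzd1 (642 residues) shared 81.6% of aligned residues with Fzd7 (572 residues) and 81.4% with Fzd2 (570 residues). Fzd5 and Fzd8 shared 71.0%, Fzd9 and Fzd10 67.0%, and Fzd3 and Fzd6 53.0%. Fzd4 was nearest to Fzd10 with 54.9%, and Lrp6 (1613 residues) shared 69.6% with Lrp5. No pair shared a stretch of 75 bases, the read length, within these transcripts.

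Promoters from RefSeq (GRCm38.p6) are shown for 5 of the 10 genes, those of Fzd1, Fzd7 and Fzd10, which were higher in the tumors, and of Fzd4 and Fzd5, which were lower. Those of Fzd2, Fzd3, Fzd6, Fzd8 and Lrp6 are not shown here. Each is given as the 250 bases before the annotated start of the gene, 5′ to 3′ on the strand of the gene. Capitals mark CTTTG or its reverse complement CAAAG, the core letters of the motif of the TCF and LEF factors through which β-catenin acts. Fzd1 lies on the minus strand with its window at chr5:4758217-4758466, and the matches begin 241 and 37 bases before the start.
Fzd1: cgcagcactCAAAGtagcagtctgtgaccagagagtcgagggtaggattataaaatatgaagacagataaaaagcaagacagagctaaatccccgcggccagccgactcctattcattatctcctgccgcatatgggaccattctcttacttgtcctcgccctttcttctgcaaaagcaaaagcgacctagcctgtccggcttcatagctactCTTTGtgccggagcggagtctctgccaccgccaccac
Fzd7 lies on the plus strand (chr1:59481897-59482146), with a match 128 bases before the start.
Fzd7: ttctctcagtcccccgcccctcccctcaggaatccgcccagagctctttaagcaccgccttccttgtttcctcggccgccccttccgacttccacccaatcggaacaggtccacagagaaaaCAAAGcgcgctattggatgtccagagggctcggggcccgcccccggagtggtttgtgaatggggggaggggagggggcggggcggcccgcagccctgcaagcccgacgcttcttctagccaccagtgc
Fzd10 lies on the plus strand (chr5:128600856-128601105), with a match 138 bases before the start.
Fzd10: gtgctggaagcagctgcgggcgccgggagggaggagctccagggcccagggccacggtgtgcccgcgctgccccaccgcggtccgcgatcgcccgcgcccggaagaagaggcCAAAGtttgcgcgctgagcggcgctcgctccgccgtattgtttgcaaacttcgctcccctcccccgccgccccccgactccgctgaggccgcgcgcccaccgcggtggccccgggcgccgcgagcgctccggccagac
Fzd4 lies on the plus strand (chr7:89404116-89404365) and has no match in this window.
Fzd4: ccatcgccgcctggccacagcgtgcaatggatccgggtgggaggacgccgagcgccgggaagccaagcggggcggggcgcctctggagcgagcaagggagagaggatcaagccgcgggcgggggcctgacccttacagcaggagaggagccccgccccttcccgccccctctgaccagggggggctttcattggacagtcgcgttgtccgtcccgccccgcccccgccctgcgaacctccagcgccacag
Fzd5 lies on the minus strand (chr1:64737751-64738000) and has no match either.
Fzd5: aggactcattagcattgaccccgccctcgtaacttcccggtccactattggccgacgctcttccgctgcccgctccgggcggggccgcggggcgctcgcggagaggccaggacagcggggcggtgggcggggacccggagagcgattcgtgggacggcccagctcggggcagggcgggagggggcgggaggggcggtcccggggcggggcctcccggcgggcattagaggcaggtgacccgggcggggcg
Among all 32851 promoters of this length, 48.6% hold at least 1 match on either strand, so these letters are a description of the windows and no evidence of binding. The windows of Fzd10, Fzd5 and Fzd4 hold 37, 32 and 25 CpG dinucleotides, and those of Fzd7 and Fzd1 hold 17 and 12, against a median of 6 over all promoters. Fzd2, Fzd3, Fzd6, Fzd8 and Lrp6 are named only.

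Receptor genes moved in both directions. Among the 10 genes, Fzd1, Fzd2, Fzd7 and Fzd10 were significantly higher in the tumors, Fzd4 and Fzd5 were significantly lower, and Fzd3, Fzd6, Fzd8 and Lrp6 did not pass the limits of an FDR under 0.05 and a change of more than 2-fold. The 4 receptors that rose encode the 3 members of the Fzd1, Fzd2 and Fzd7 group and Fzd10. Over the 10 receptor genes the log2 fold changes had a median of 0.59, with 7 positive and 3 negative values, against 0.01 over the 11795 genes that passed the filter on low values. Of those 11795 genes, 17.2% passed the limits, 10.2% as higher and 6.99% as lower in the tumors, which is 1204 and 825 genes. Fzd4 and Fzd8 did not pass the filter, since they stood above 5 normalized cpm in only 3 and 6 of the 13 libraries, and their tests come from the fit without it, where 20.6% of 15213 genes passed the limits, 10.5% as higher and 10.1% as lower. Fzd10 passed the filter only through the tumors, in 9 libraries. The split of calls depended on the scaling of the libraries. With library size alone as the scaling, 5 receptors were higher and 2 lower beside 1886 and 513 genes of the whole table, whereas scaling each library to 20 epithelial genes left 2 higher and 3 lower beside 466 and 5650. These scalings moved the median of the fold changes of all genes to 0.33 and to -0.99 on the log2 scale, and relative to that median the change of Fzd1 was 2.20 in the reported fit and under both scalings. That of Fzd7 was 1.03, 1.04 and 1.01 in the reported fit, with library size alone and with the epithelial scaling, and that of Fzd4 was -3.15, -3.18 and -3.10.

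Values of the groups did not overlap for 5 of these genes. The 10 tumors lay above the 3 glands for 3 receptor genes (Fzd1, Fzd2 and Fzd10) and below them for 2 (Fzd4 and Fzd5), and the other 5 overlapped. In the background, 10.7% of the genes past the filter had all tumors above all glands and 8.53% had all tumors below them, and over all listed genes these shares were 11.4% and 10.3%.

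**Figure D1:**
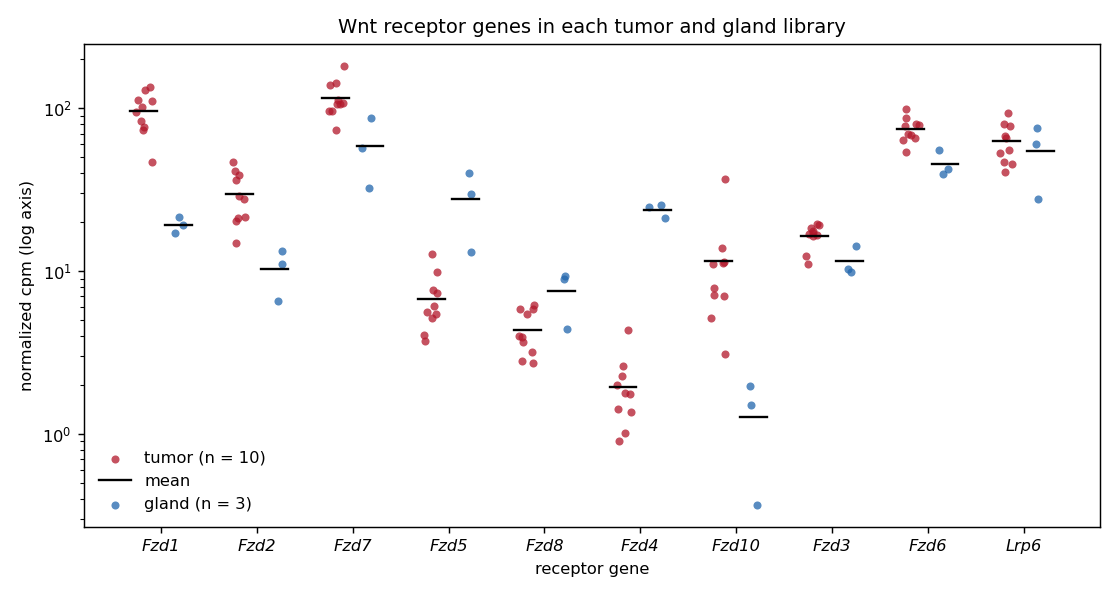
Level of the 10 receptor genes in normalized cpm on a log axis, with 1 point for each of the 10 tumors (red) and 3 glands (blue) and a black line at each mean. The tumor points of Fzd1 lie between 47.0 and 136 and all gland points between 17.2 and 21.5, while for Fzd4 the tumor points lie at 4.32 or less and the gland points at 21.2 or more.

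Fzd1 (Entrez 14362, chr5:4753839-4758216, a single exon) had 47.0, 98.2 and 136 normalized cpm as the lowest, median and highest tumor values, against 19.1, 21.5 and 17.2 in glands 1, 2 and 3. Every tumor exceeded every gland, and the lowest tumor, number 2, still held more than the highest gland. Tumors averaged 96.7 ± 27.2 (SD, n = 10) and glands 19.3 ± 2.15 (SD, n = 3), a log2 fold change of 2.22 ± 0.26 (SE) with an FDR of 1.96e-05 by limma. Without gland 3 the log2 fold change was 2.14, and with the tumors of each mouse averaged to 1 sample it was 2.27. Under the epithelial scaling it was 1.21 (FDR 0.00333). With the replicate number of the labels as a block it was 1.90 and no longer passed (FDR 0.0814). Fzd1 encodes a receptor that couples to β-catenin in many cell types.

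Fzd2 (Entrez 57265, chr11:102604431-102608058, a single exon), which can couple to both branches of Wnt signaling and is a receptor of Wnt5a, stood at 14.8, 28.3 and 46.6 as the lowest, median and highest tumor values. Glands 1, 2 and 3 had 11.1, 13.3 and 6.58 normalized cpm. The groups did not overlap, but tumor 9, the library richest in Rn45s, came close to gland 2. Tumors averaged 29.8 ± 10.5 (SD, n = 10) and glands 10.3 ± 3.43 (SD, n = 3), with a log2 fold change of 1.41 ± 0.31 and an FDR of 0.00338. Under the epithelial scaling the log2 fold change was 0.44 and no longer passed (FDR 0.0887).

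Fzd7 (Entrez 14369, chr1:59482147-59486955, a single exon) is a β-catenin coupled receptor known from stem cells of the gut and from the basal mammary epithelium. Its tumor values were 73.7 at the lowest, 108 at the median and 182 in tumor 4, and its gland values were 57.0, 87.1 and 32.4. Here 9 of the 10 tumors exceeded all glands, and tumor 5 lay below gland 2. Tumors averaged 117 ± 30.6 (SD, n = 10) and glands 58.9 ± 27.4 (SD, n = 3), and the log2 fold change of 1.04 ± 0.27 (FDR 0.0107) was just past the 2-fold limit. This call rested on single libraries, since the log2 fold change was 0.68 with an FDR of 0.0681 without gland 3 and 0.97 with an FDR of 0.0132 without tumor 4, and it was 0.98 with edgeR and 0.99 with DESeq2 on the recovered reads, below the limit each time. Under the epithelial scaling it was 0.01.

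Fzd10 (Entrez 93897, chr5:128601106-128604093, a single exon) belongs to the group of Fzd4 and Fzd9 and is scarce in most adult tissues. Its tumor values ran from 3.07 in tumor 2 over a median of 9.50 to 36.7 in tumor 7, whereas glands 1, 2 and 3 had 1.5, 1.96 and 0.366, the last of them a count of 3 reads. All tumors lay above all glands, and tumor 7 stood far above the other tumors. Tumors averaged 11.5 ± 9.45 (SD, n = 10) and glands 1.28 ± 0.821 (SD, n = 3), with a log2 fold change of 2.27 ± 0.49 (FDR 0.00273). The pseudocount of 1 understates the change of a gene at such levels, and the ratio of the means was 9.0.

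Squamous markers rose beside these receptors. Of 14 squamous epithelial markers, 13 were higher in the tumors in the fit without the filter, and their summed level was 840 to 5505 normalized cpm in the tumors and 32.8 to 56.9 in the glands, where Ivl, Flg, Sprr1b and Dsg3 were at 0 in all libraries. Tumor 7 had the highest squamous sum and the highest Fzd10. Over the 10 tumors, the log2 level of Fzd10 and that of the squamous sum had a Pearson r of 0.82, a description of 10 libraries that share mice and depth. This r rests in part on tumor 7, and no value without that tumor was computed. Fzd5, which was lower in the tumors, had an r of 0.77 with the same sum. The part of squamous tissue in the change of Fzd10 was not tested, and in bulk tissue more cells of a type and more RNA per cell cannot be told apart, here or for any gene below.

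Fzd4 (Entrez 14366, chr7:89404366-89410110, 2 exons) showed the largest difference of the 10 genes and went in the opposite direction. It encodes the receptor of Norrin and is required for the growth of retinal vessels. The tumors had 0.900 at the lowest, 1.77 at the median and 4.32 in tumor 4, and the glands had 24.6, 25.7 and 21.2 normalized cpm. Even the highest tumor was far below the lowest gland. The average fell from 23.8 ± 2.33 (SD, n = 3) in glands to 1.94 ± 0.991 (SD, n = 10) in tumors, a 12.3-fold lower level as a ratio of means and a log2 fold change of -3.13 ± 0.26 on the log2(normalized cpm + 1) scale (FDR 6.91e-07, fit without the filter). In reads, the tumors held between 9 and 92 and the glands between 174 and 575.

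Markers of the vessels, of fat and of stroma were lower in the tumors as well. Of 12 endothelial markers, 10 fell, with a summed level of 108 to 241 normalized cpm in the tumors and 448 to 920 in the glands. All 12 adipocyte markers fell, from a sum of 4462 to 11791 in the glands to 99.2 to 539 in the tumors, and of 12 fibroblast markers 5 fell and 1 rose, with sums of 4108 to 4619 in the glands and 487 to 1401 in the tumors. None of these markers was at 0 in all libraries of a group. For every 1000 normalized cpm of the endothelial sum, Fzd4 had 7.80 to 25.1 in the tumors and 27.3 to 47.4 in the glands, so that it was lower in all 10 tumors also relative to these markers. Relative to the fibroblast sum it was again lower, with 1.26 to 3.90 in the tumors and 5.05 to 5.99 in the glands. Relative to the adipocyte sum it was higher in all 10 tumors, with 7.04 to 20.7 against 1.80 to 5.52. These ratios were chosen after the values were seen and are given without a test.

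Fzd5 (Entrez 14367, chr1:64730558-64737750, 2 exons, overlapped on the other strand by Gm38058) encodes a β-catenin coupled receptor of the gut and eye. Its tumor values were 3.71, 5.86 and 12.8 at the lowest, median and highest, and glands 1, 2 and 3 had 29.7, 40.1 and 13.2. The groups did not overlap, although tumor 7 nearly reached gland 3. Tumors averaged 6.77 ± 2.78 (SD, n = 10) and glands 27.6 ± 13.6 (SD, n = 3), with a log2 fold change of -1.83 ± 0.34 (FDR 9.38e-04), and of -2.27 without gland 3. For every 1000 normalized cpm of the luminal marker sum, Fzd5 had 1.28 to 5.61 in the tumors and 6.58 to 9.94 in the glands, again without overlap. Relative to the milk protein sum the order was the opposite, with 0.128 to 4.56 in the tumors and 0.0431 to 0.211 in the glands for every 1000 normalized cpm, and 8 of the 10 tumors lay above all glands. These ratios, too, were chosen after the values were seen. All 8 milk protein genes fell, from a sum of 165045 to 305302 in the glands to 1385 to 76630 in the tumors, and the part of lactation in the level of Fzd5 was not tested.

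Fzd8 (Entrez 14370, a single exon) is the nearest relative of Fzd5. Its tumor values of 2.73, 3.97 and 6.19 at the lowest, median and highest overlapped with the glands, which had 8.99, 9.29 and 4.39 normalized cpm. Gland 3 lay among the tumors, and the other glands exceeded every tumor. Below all 3 glands were 6 tumors. Tumors averaged 4.36 ± 1.34 (SD, n = 10) and glands 7.56 ± 2.75 (SD, n = 3), with a log2 fold change of -0.66 ± 0.26 (FDR 0.0720, fit without the filter). It was -0.96 with an FDR of 0.0196 without gland 3, still within the 2-fold limit, and -1.58 under the epithelial scaling, where it passed (FDR 3.49e-05).

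Fzd3 and Fzd6, the pair best known from planar cell polarity and the orientation of hair follicles, did not pass both limits. Fzd3 (Entrez 14365, chr14:65192441-65262463, up to 7 exons) had tumor values of 11.04, 17.1 and 19.5 at the lowest, median and highest against 10.3, 14.4 and 9.87 in the glands. Tumors 3 and 6 lay within the range of the glands and the other 8 above it. Its log2 fold change was 0.49 ± 0.18 (FDR 0.0630). Fzd6 (Entrez 14368, chr15:39006149-39038192, up to 7 exons) had 53.7, 73.8 and 99.8 in the tumors and 42.3, 55.8 and 39.4 in the glands, and 9 of 10 tumors exceeded all glands. The log2 fold change of Fzd6 was 0.69 ± 0.18 with an FDR of 0.00967, so that it passed the FDR but not the 2-fold limit. With library size alone it reached 1.01 and passed both. Under the epithelial scaling the values turned to -0.49 for Fzd3 and -0.34 for Fzd6, and relative to the median gene they were 0.50 and 0.65. Both genes are overlapped by unnamed transcripts (Gm27263 and Gm9086 for Fzd3, Gm26704 for Fzd6), and whether the counting used the strand is not given in the sources used here.

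Lrp6 (Entrez 16974, chr6:134446476-134566913, up to 23 exons), the co-receptor that Wnt ligands join to the Frizzleds, did not pass the limits. The tumors had 40.8 at the lowest, 60.4 at the median and 93.6 at the highest, and the glands had 60.4, 75.3 and 27.6 normalized cpm. Gland 3 was below all tumors, and 3 tumors (4, 6 and 7) were above all glands. Tumors averaged 62.7 ± 17.2 (SD, n = 10) and glands 54.4 ± 24.4 (SD, n = 3), with a log2 fold change of 0.27 ± 0.29 (FDR 0.538). Its sign depended on a single library, since it was -0.15 without gland 3 (FDR 0.687), and under the epithelial scaling it was -0.76.

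The family members outside the set were examined in the same fit. Fzd9, the nearest relative of Fzd10, stood at 2.73 to 9.91 normalized cpm in the tumors and at 0.428, 1.86 and 0.366 in the glands, with a log2 fold change of 1.67 ± 0.29 (FDR 5.11e-04, fit without the filter). Every tumor exceeded every gland. Lrp5, the relative of Lrp6, had 26.5 to 104 in the tumors and 91.7, 111 and 19.99 in the glands, with a log2 fold change of 0.02 ± 0.50 (FDR 0.980). Its value rested on single glands, with -0.74 without gland 3 and 0.47 without gland 2, and under the epithelial scaling it was -1.0 and called lower (FDR 0.0227).

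**Figure D2:**
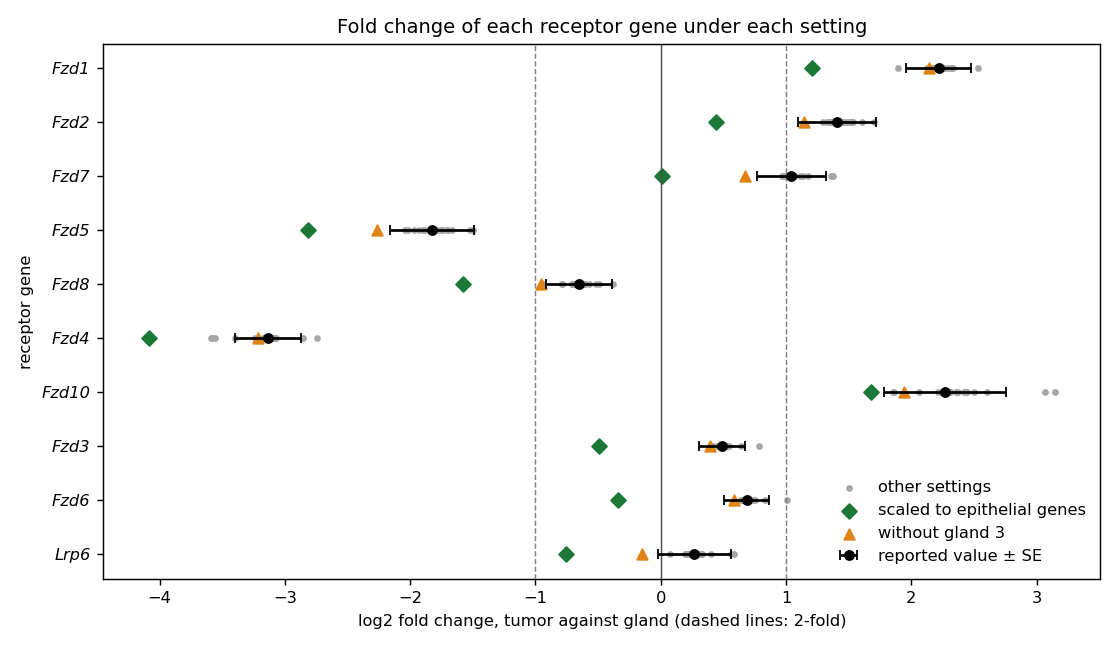
Log2 fold change of each receptor gene, tumor against gland, with the reported value and its SE in black and the values under 24 other settings as further symbols. Fzd1, Fzd10, Fzd4 and Fzd5 stay beyond the dashed 2-fold lines under every setting drawn, Fzd7 reaches 0.01 with the epithelial scaling (green), and Lrp6 falls below 0 without gland 3 (orange).

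Levels of different genes were compared per kilobase of exons, with exon lengths from GENCODE. For several genes, most of all Fzd8 (5.97 kb) and Fzd4 (6.72 kb), these lengths exceed the span of the gene in RefSeq. The levels per kilobase of such genes, and their places in the order, therefore depend on the annotation. In the tumors the order was Fzd7 (25.7 ± 6.74 normalized cpm per kb), Fzd1 (23.0 ± 6.48), Fzd6 (15.5 ± 2.72), Fzd2 (8.13 ± 2.88), Lrp6 (4.58 ± 1.26), Fzd10 (3.53 ± 2.91), Fzd3 (1.29 ± 0.215), Fzd5 (0.978 ± 0.402), Fzd8 (0.731 ± 0.224) and Fzd4 (0.289 ± 0.147), each as SD with n = 10. Fzd7 exceeded Fzd1 in 6 of 10 tumors, so that these neighbours do not differ beyond their spread, and Lrp6 exceeded Fzd10 in 7 tumors and Fzd3 exceeded Fzd5 in 7. Fzd2 was above Lrp6 and Fzd8 above Fzd4 in all 10. In the glands the order was Fzd7 (12.99 ± 6.04), Fzd6 (9.51 ± 1.81), Fzd1 (4.59 ± 0.512), Fzd5 (4.0 ± 1.96), Lrp6 (3.98 ± 1.79), Fzd4 (3.55 ± 0.346), Fzd2 (2.82 ± 0.937), Fzd8 (1.27 ± 0.460), Fzd3 (0.898 ± 0.194) and Fzd10 (0.392 ± 0.253), with n = 3. Among the glands, Fzd5, Lrp6 and Fzd4 did not differ beyond their spread, and Fzd7 exceeded Fzd6, and Fzd1 exceeded Fzd5, in 2 of 3. With the GENCODE lengths, Fzd4 was the lowest of the 10 genes in the tumors and the sixth in the glands, and Fzd10 the lowest in the glands and the sixth in the tumors.

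The sum over all 10 Frizzled genes, Fzd9 included, was 81.3 ± 15.9 normalized cpm per kb (SD, n = 10) for tumors and 40.4 ± 12.6 (SD, n = 3) for glands, with ranges of 58.2 to 107 and 28.1 to 53.2. Within that sum the share of Fzd7 differed by less than its SD, with 31.7% ± 5.45 in the tumors and 31.1% ± 5.31 in the glands. Fzd1 held 28.1% ± 4.92 of the sum in the tumors and 11.9% ± 2.52 in the glands, without overlap. The share of Fzd6 was 19.3% ± 3.42 and 24.3% ± 4.19. Fzd5 held 1.21% ± 0.443 in the tumors against 9.48% ± 2.34 in the glands, and Fzd4 0.350% ± 0.126 against 9.20% ± 2.04. Shares within a library do not depend on its scaling, whereas the sums do. Under the epithelial scaling the log2 fold changes of Fzd7, Fzd1 and Fzd6 were 0.01, 1.21 and -0.34, and the sum was not computed there.

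**Figure D3:**
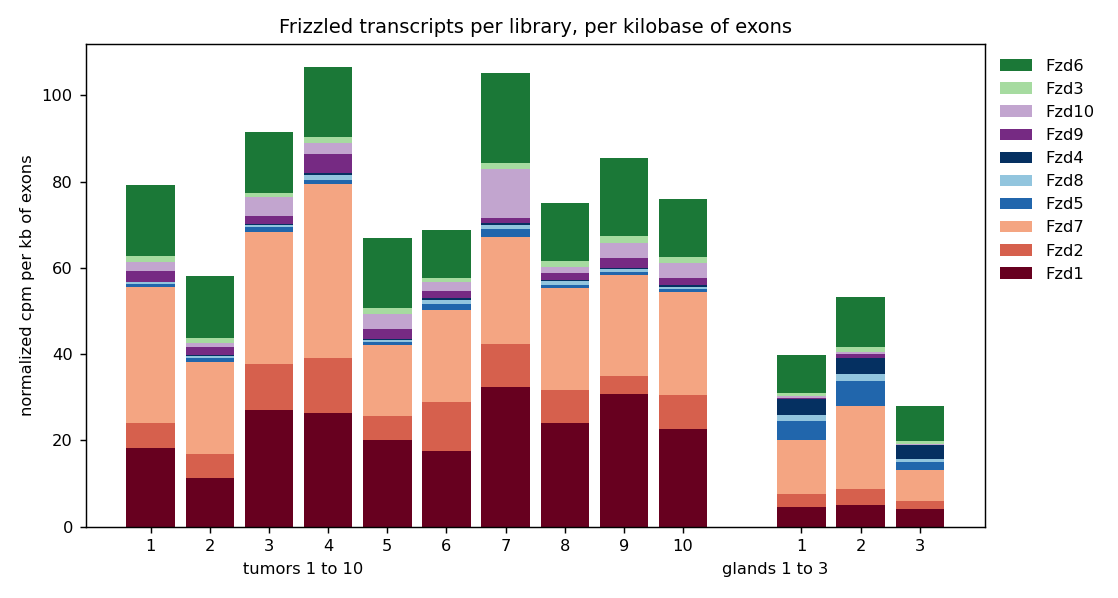
Stacked level of the 10 Frizzled genes in normalized cpm per kilobase of exons, with 1 bar for each of tumors 1 to 10 and glands 1 to 3. Fzd1 (dark red) makes up 19.2% to 36.1% of each tumor bar and 9.61% to 14.6% of each gland bar, and Fzd4 (dark blue) at most 0.603% of a tumor bar and at least 7.17% of a gland bar.

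Tumors differed among themselves most in Fzd10, whose highest value was 11.9 times the lowest, and least in Fzd3 and Fzd6, where that ratio was 1.77 and 1.86. Fzd4 spanned 4.80-fold, Fzd5 3.45-fold, Fzd2 3.15-fold and Fzd1 2.90-fold. Tumor 7 had the highest value of Fzd1, Fzd3, Fzd5, Fzd6, Fzd8 and Fzd10, and tumor 4 that of Fzd2, Fzd4, Fzd7 and Lrp6. Tumor 4 also held the highest sum of skeletal muscle markers, 2760 normalized cpm against 445 in tumor 10 and 19.1 or less in the other tumors, a sum over the 8 listed of 10 muscle markers. The part of muscle in its receptor levels was not tested, and without tumor 4 only the call of Fzd7 was lost.

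Tumors of the same mouse were not always alike. Tumors 2 and 3 had 47.0 and 113 normalized cpm of Fzd1, a ratio of 2.41, and 3.07 and 13.9 of Fzd10, a ratio of 4.54. Tumors 5 and 6 had 21.1 and 41.1 of Fzd2, and 2.73 and 5.85 of Fzd8. Tumors 8, 9 and 10, in contrast, held 107, 107 and 109 of Fzd7, although they ranged from 14.8 to 28.8 in Fzd2. Without this mouse the same 4 receptors were higher and 2 lower, and the log2 fold changes of Fzd1 and Fzd7 were 2.13 and 1.08.

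Over the 10 tumors, receptor genes were compared by the Pearson correlation of their log2 levels, which is a description of libraries that share mice, depth and tissue make-up. Lrp6 went with Fzd8 (r = 0.92), Fzd2 (r = 0.86), Fzd5 (r = 0.74) and Fzd4 (r = 0.69), and outside the set with Lrp5 (r = 0.91). Fzd4, at few reads, also went with Fzd8 (r = 0.71). Fzd3 went with Fzd6 (r = 0.79), the planar polarity pair, and Fzd1 with Fzd10 (r = 0.76). The lowest value was that of Fzd2 with Fzd3 (r = -0.45), and within the 10 genes Fzd7 reached at most 0.48, with Fzd2. The sum of 12 basal markers, which ranged from 1216 to 3884 in the tumors and from 1005 to 3060 in the glands, and of which 5 were higher and 6 lower, moved with Fzd2 (r = 0.88), Lrp6 (r = 0.88), Fzd5 (r = 0.86) and Fzd8 (r = 0.82) over the tumors. The adipocyte sum moved with these genes too, with r = 0.72 for Fzd2, 0.86 for Lrp6, 0.70 for Fzd5 and 0.71 for Fzd8, and also with Fzd4 (r = 0.79) and, outside the set, Lrp5 (r = 0.78). The luminal sum moved against Fzd6 (r = -0.90). The part of basal, luminal and fat cells in these patterns was not tested.

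**Figure D4:**
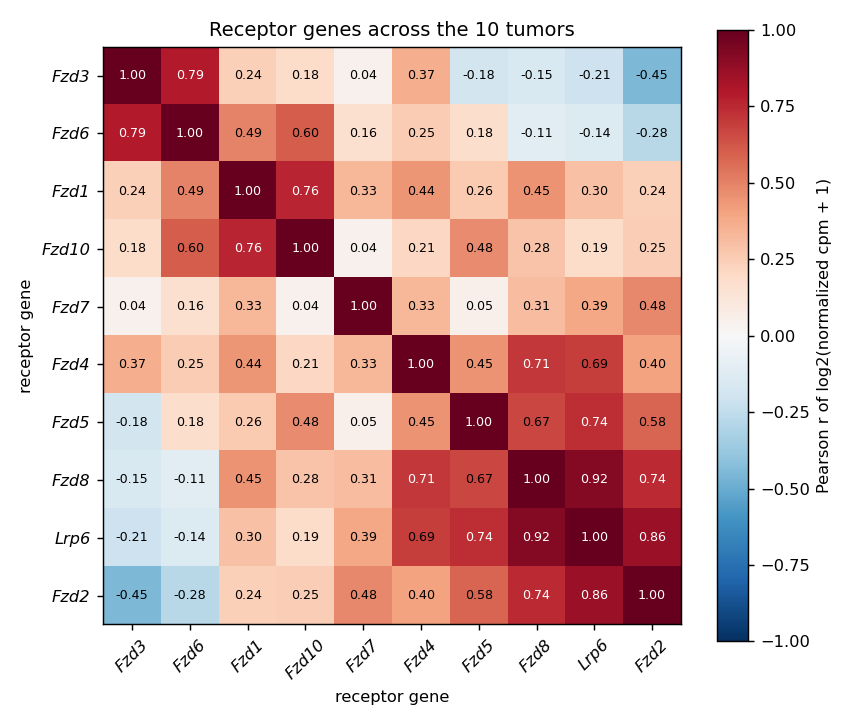
Pearson correlation of log2(normalized cpm + 1) between receptor genes over the 10 tumors, from blue (negative) to red (positive). Lrp6, Fzd8, Fzd2 and Fzd5 stand at the lower right with values from 0.58 to 0.92, next to Fzd4 with 0.40 to 0.71, and Fzd3 and Fzd6 stand at the upper left with 0.79.

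For each receptor that passed the limits, the 3 tested genes with the highest Pearson correlation over the 10 tumors were determined. They were Tmem43 (0.93), Tmem245 (0.91) and Stim2 (0.91) for Fzd1. For Fzd2 they were Kdm4b (0.98), Irx4 (0.98) and Arhgef19 (0.97), and the last pair were also higher in the tumors, with log2 fold changes of 1.33 and 1.40. Those of Fzd7 were Asap3 (0.92), Pik3ip1 (0.91) and Tlcd2 (0.89), of which Asap3 (2.08) and Tlcd2 (1.60) were higher and Pik3ip1 (-1.01) lower in the tumors. Fzd10 was most like Efna4 (0.94), Slc22a15 (0.92) and Phlda3 (0.92), and the first pair were higher in the tumors, with log2 fold changes of 1.59 and 1.41. Fzd5 was most like Thsd4 (0.96), Ctif (0.96) and Dnajc21 (0.96), none of them called, and Fzd4, at few reads in the tumors, was most like Arsa (0.94), Ism1 (0.86) and Aspm (0.86), of which Aspm was higher in the tumors (1.21). Each was compared with 11794 or 11795 genes over 10 tumors only.

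Other genes of the pathway were taken from 7 lists by role. Since a gene can pass the filter on low values through the tumors alone, all listed genes are counted first, in the fit without the filter, where 20.6% of all genes passed the limits. The genes past the filter follow, against 17.2%. With the replicate number of the labels as a block, every call in the lists of receptor partners, nuclear effectors and planar polarity was lost, those of Lrp4, Tle2 and Celsr1 included, and of the antagonists only Notum, of the transducers only Axin2 and Nkd2 and of the ligands only Wnt5a, Wnt10a and Wnt10b kept theirs, whereas Lgr5, Kremen2 and Apcdd1 stayed called. At an unadjusted p under 0.05 from limma in that blocked fit, 3 of 11 receptor partners, 2 of 12 nuclear effectors and 3 of 14 planar polarity genes passed. Only numbers 1 to 3 occur in both groups, so few libraries bear on the contrast under this block. The median log2 fold changes of these 3 lists were 0.50, -0.41 and 0.44 there, against 0.54, -0.37 and 0.43 in the reported fit. For receptor turnover the median went from 0.85 to 0.61, and for antagonists from 1.76 to 1.11. Of 13 listed ligand genes, which are Wnt genes and the Norrin gene Ndp, 7 were higher in the tumors and 2 lower (Wnt2 and Wnt4), with a median log2 fold change of 1.16. Of the 7 past the filter 5 were higher and 1 lower. Wnt10a, a ligand of skin appendages, had the largest rise, from 0.706 ± 0.707 in the glands to 23.4 ± 11.5 normalized cpm in the tumors (log2 fold change 3.78 ± 0.40, FDR 7.74e-06). Wnt4, the ligand of progesterone-driven side branching, stood at 23.8 ± 11.7 in the glands and 8.18 ± 5.41 in the tumors (-1.49 ± 0.43, FDR 0.0183). The call of Wnt4 was lost without gland 1, without gland 2, without the mouse of tumors 8, 9 and 10, with the tumors of each mouse averaged, with library size alone and with the replicate number of the labels as a block.

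Of 14 other receptors and partners, Fzd9 and Lrp5 included, 5 were higher, with a median of 0.36. Of the 11 past the filter 4 were higher (Lrp4, Ror2, Ptk7 and Adgra2), but without gland 3 only Lrp4, 1 of 12, was called. Lrp4, a receptor that also binds the antagonist Sostdc1, had 36.5 ± 12.8 in the tumors against 11.3 ± 5.25 in the glands (1.65 ± 0.33, FDR 0.00166), a call that was lost under the epithelial scaling. Receptor turnover sets how many Frizzleds remain at the membrane, and of its 13 listed genes 3 were higher (Lgr5, Kremen2 and Apcdd1) and 1 lower (Rspo1), with a median of 0.77. The same 3 were higher among the 11 past the filter, 2 of them (Lgr5 and Kremen2) under the epithelial scaling, and with library size alone 6 were, Znrf3, Shisa2 and Tmem79 in addition. Lgr5, a receptor of R-spondins and a target of β-catenin, rose from 0.362 ± 0.270 to 87.3 ± 34.4 (5.94 ± 0.31, FDR 1.16e-08). Rspo1, which encodes an R-spondin, the ligand type that keeps Frizzleds at the membrane, fell from 238 ± 96.5 in the glands to 3.56 ± 2.24 in the tumors (-5.82 ± 0.50, FDR 9.56e-07, fit without the filter). The ubiquitin ligase genes Rnf43 and Znrf3, which remove Frizzleds from the membrane, had log2 fold changes of 0.33 and 0.87 and were not called in the reported fit.

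Of 10 listed secreted antagonists, 8 were higher and 1 lower, with a median log2 fold change of 1.46. Of the 8 past the filter 7 were higher and 1 lower, but only 4 were higher without gland 3 and 4 without gland 1. Notum, an enzyme that strips the lipid from Wnt ligands and is itself a β-catenin target, had the largest rise (4.25 ± 0.40, FDR 2.89e-06), from 0.365 ± 0.315 to 27.6 ± 14.3 normalized cpm, and was called in all of these fits. Igfbp4 was lower (-1.09 ± 0.34, FDR 0.0260), a call that was lost without gland 1, gland 2, tumor 9 or the mouse of tumors 8, 9 and 10, with library size alone and with the block.

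Of 20 cytoplasmic transducers, 3 were higher (Axin2, Nkd1 and Nkd2) and 1 lower (Dact3), with a median of -0.19. The 3 that rose are feedback inhibitors, and Nkd2 rose most (4.84 ± 0.36, FDR 2.94e-07). Among the 17 past the filter the same 3 were higher, and without gland 3, Dvl3 and Amer1 were called lower. Of 13 nuclear effectors, 1 was higher and 2 lower (Tcf7l1 and Lef1), with a median of -0.39. Lef1 is also a gene of lymphocytes and stood at 19.9 ± 21.6 in the glands and 1.62 ± 2.65 in the tumors. Of 12 lymphocyte markers 10 were lower in the tumors, with sums of 15.1 to 164 there and of 700, 33.0 and 666 in glands 1, 2 and 3, and the part of lymphocytes in the level of Lef1 was not tested. Tle2, a corepressor, had a log2 fold change of 1.21 ± 0.28 (FDR 0.00531), and its call was lost under the epithelial scaling. Tcf7l1 had -1.76 ± 0.50 (FDR 0.0157) and was not called without gland 1, gland 2 or the mouse of tumors 8, 9 and 10, with library size alone or with the block. Among the 12 past the filter, 1 was higher and 1 lower, whereas 2 were lower without gland 3 (Tcf7l1 and Bcl9), 2 without gland 2 (Tcf7 and Tle4), and none without gland 1, where limma gave 2 lower at an unadjusted p under 0.05. Of 15 genes of the planar polarity branch, 5 were higher and 1 lower (Daam2), with a median of 0.31, and Celsr1 rose most (2.87 ± 0.47, FDR 3.76e-04). Of the 14 past the filter 5 were higher, but only 3 (Celsr1, Prickle1 and Prickle3) when gland 1, gland 3 or tumor 3, 4, 6 or 7 was left out. Under the epithelial scaling, 466 of all 11674 genes tested were higher and 5650 lower, and the counts of the lists are to be read against these. The counts of ligands past the filter stayed at 5 and 1. Those of 17 cytoplasmic transducers became 2 higher and 10 lower, those of 14 planar polarity genes 1 and 4, and those of 8 antagonists 1 and 1. There 8 of 12 nuclear effectors and 3 of 11 receptors and partners were lower. None of either list was called higher by limma any more (at an unadjusted p under 0.05, 0 of 12 nuclear effectors and 1 of 11 receptor partners were higher).

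**Figure D5:**
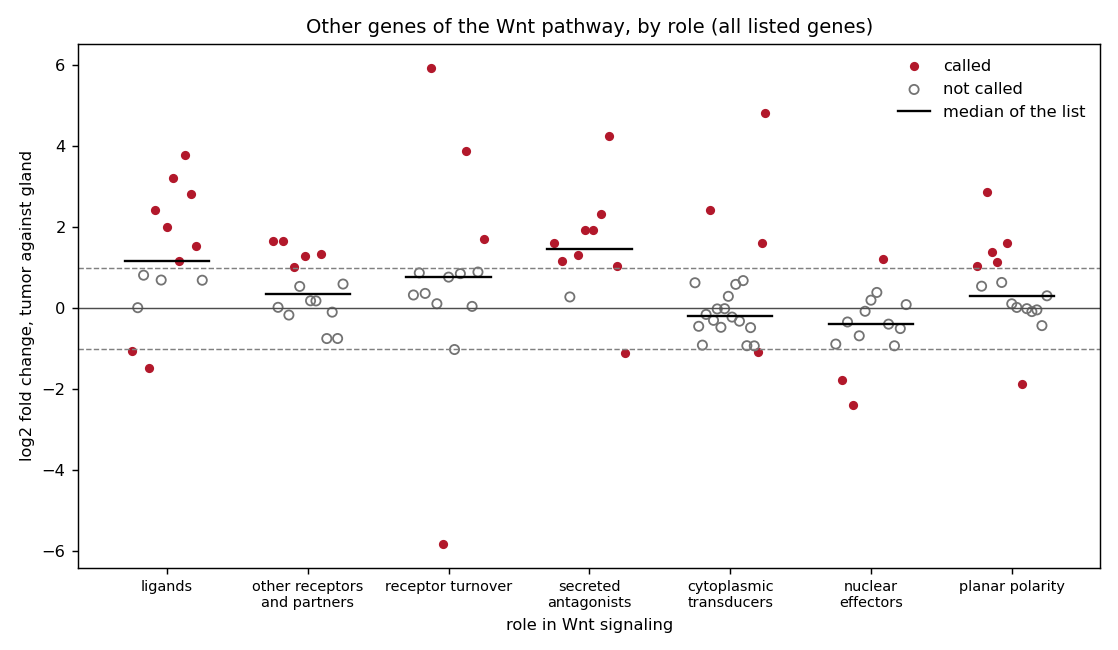
Log2 fold change, tumor against gland, in the fit without the filter, of all listed other genes of the Wnt pathway in 7 lists by role, with genes past both limits as filled points, other genes as open points and the median of each list as a line. The medians of ligands and antagonists are 1.16 and 1.46, those of cytoplasmic transducers and nuclear effectors are -0.19 and -0.39, and the lowest point is Rspo1 at -5.82.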

How the data were processed

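Total RNA of 10 tumors and 3 glands was sequenced as 75 bp paired-end reads. Mapping to mm10 was done by the authors with Rsubread, gene counting with featureCounts and normalization with edgeR. The deposited signal values are normalized cpm, in which every value (100%, within a tolerance of 0.01 reads) is a whole multiple of the value of 1 read, and reads were recovered from it. Groups came from the labels. The labels name both the UNMC core facility and Novogene, without saying for which libraries, so no batch could be assigned.

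Tests used limma 3.58.1 with a variance trend on log2(normalized cpm + 1) of all 13 libraries in R 4.3.3, with group as the only term and Benjamini-Hochberg adjustment. Genes above 5 normalized cpm in at least 7 libraries were tested. Receptor genes below this were taken from the same fit without the filter. Genes with an FDR under 0.05 and a change of more than 2-fold were called. Alternatives used edgeR 4.0.16 and DESeq2 1.42.0 on the recovered reads, other pseudocounts, scalings and filters, mice as blocks or averaged, and libraries left out. The fit was tested on simulated data.

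Coordinates and promoters are those of RefSeq (GRCm38.p6), and transcripts and exon lengths those of GENCODE. Besides the receptors, the text names the called gene with the largest rise and fall of each list, the 3 genes most correlated with each called receptor, Fzd9 and Lrp5, and Rn45s, Csn2 and Tsg101. Other names were added after their values were seen. Receptors and lists were chosen with earlier results of these data known.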

Additional observations from a re-analysis of the deposited data

Results flagged for a closer look

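In 3 cases the highest of the 10 tumors stood apart in normalized cpm by more than Dixon's criterion for a group of 10 allows. Fzd10 reached 36.7 normalized cpm in tumor 7, where the gap to the next tumor was 0.677 of the range. Fzd4 reached 4.32 in tumor 4, with a gap of 0.496 of the range, and Fzd9, a family member outside the set, reached 9.91 in the same tumor, with a gap of 0.586. For independent values of a normal distribution, chance gives about 1 in 20 groups such a gap, and the 10 receptors, Fzd9 and Lrp5 were examined. These tumors share mice, and the gaps were not computed on the log2 scale of the fits, so these flags are a description only. Without tumor 7, Fzd10 was still called.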

How the results depend on the processing

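Main counts were 4 receptors higher and 2 lower. The epithelial scaling left 2 higher. With the replicate number of the labels as a replicate block, 0 receptors were higher and 1 was lower by limma (3 and 2 at an unadjusted p under 0.05), but only numbers 1 to 3 occur in both groups, same-numbered tumors and glands are different animals and their deviations did not go together (r = -0.58, 0.04 and -0.66). Leaving out 1 library at a time gave 3 to 4 receptors higher and 2 lower in every case. Over all genes, 1204 were higher and 825 lower, which became 362 and 182 with the replicate block, 1886 and 513 with library size alone as the scaling, 466 and 5650 with the epithelial scaling and 1538 lower without the filter. Leave-one-out counts ran from 1003 to 1537 higher and from 658 to 1123 lower. Directions reversed for Fzd3 (-0.49), Fzd6 (-0.34) and Lrp6 (-0.76) under the epithelial scaling and for Lrp6 without gland 3, where leaving out 1 library gave -0.15 to 0.56. These scalings shift the median of all genes, and other causes were not tested. Fzd4 was called under all 24 alternatives, and Fzd1, Fzd5 and Fzd10 under all but the replicate block. Fzd7 lost its call under 6 and Fzd2 under 2. Low read numbers limit Fzd4, Fzd8 and Fzd10.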
